A study of Mus musculus with 13 samples.

Results

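Serine, proline, asparagine and alanine are built in cells from intermediates of glycolysis and the tricarboxylic acid cycle, with glutamate and glutamine as nitrogen donors. The mRNAs of 10 enzymes of these routes were followed in hearts of OMA1 ASO-treated and CTRL ASO-treated C10 G58R mice. The enzymes were Phgdh, Psat1, Psph, Asns, Aldh18a1, Oat, Gpt, Gpt2, Got1 and Got2. They were taken by gene symbol from the annotation of the arrays, by the brightest transcript cluster of each gene, and were 10 of the 22206 clusters tested. All 10 were found, each with 1 cluster, so every member entered the tests.

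Total RNA of whole hearts had been hybridized to Clariom S Mouse arrays, with 13 arrays in all. OMA1 ASO1 was given to the mice of 5 arrays, OMA1 ASO2 to those of 3 and CTRL ASO, a nontargeting antisense oligonucleotide, to those of 5. All mice, the CTRL ASO group included, were 33 weeks old, carried the G58R knock-in mutation (human numbering) of C10, or CHCHD10, a small protein of the mitochondrial intermembrane space, and were OMA1+/-, and all received weekly subcutaneous injections at 50 mg/kg. The ASOs were given to the whole animal and the hearts were bulk tissue, so fewer cells of a type and less RNA per cell cannot be told apart. No C10 WT heart and no untreated heart was part of the comparison. Values are log2 signals, on which a difference of 1 is a doubling, and the comparisons ask how OMA1 ASO changed the level of each mRNA.

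OMA1 is a protease of the inner mitochondrial membrane. Under mitochondrial stress it cleaves DELE1, which starts the integrated stress response (ISR), and the ISR raises translation of the transcription factor ATF4. ATF4 is known for activating genes of amino acid synthesis and transport, and the serine route also feeds one-carbon units into mitochondrial folate metabolism. In the heart, a raised serine and one-carbon program is a known feature of mitochondrial cardiomyopathies.

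The targeted gene and the arrays were checked first. Oma1 averaged 4.99 ± 0.40 with OMA1 ASO1 (SD, n = 5), 4.56 ± 0.79 with OMA1 ASO2 (n = 3) and 9.41 ± 0.26 with CTRL ASO (n = 5), and lay below background on every OMA1 ASO array. Background is the highest of 23 groups of background probes on an array, at 5.77 to 6.07. Arrays correlated with the others of their group at a mean r of 0.984 to 0.990 except ASO1 replicate 5, at 0.974, which also had the lowest mean of 3 fibroblast markers, at 11.67, and of 3 macrophage markers, close to its background. ASO1 replicate 1 had signal for the skeletal muscle myosins Myh4 (11.95) and Myh1 (7.34), which were below background on the other arrays. The 6 cardiomyocyte markers averaged 18.55 to 18.70 with OMA1 ASO and 18.45 to 18.62 with CTRL ASO, the T and B cell and adipocyte markers lay below background on every array, and 0 marker genes of any list passed the test in any comparison. Y-linked genes were above background on 2 OMA1 ASO1, 0 OMA1 ASO2 and 2 CTRL ASO arrays. The part of these differences between arrays in the results was examined only by leaving each array out, by array weights, by the Y-linked mean as a covariate and by using only the arrays without Y-linked signal.

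ATF4 binds DNA with C/EBP partners at C/EBP-ATF response elements, and the first such element described in an amino acid enzyme gene was in human ASNS. The letters TGATGNAAN, or NTTNCATCA on the other strand, were searched in the RefSeq promoters of GRCm38.p6, each running from 250 bases before to 50 bases after the gene's start. They stood in 1299 of 32851 promoters (3.95%). A promoter was at hand for 9 of the 10 genes, with 10 entries in all, and the letters stood in 2 of them, Asns and Got1. Both stretches are printed because Asns had the largest fitted fall of the 10 enzymes and Got1 did not pass the test, with the letters in capitals. The Asns stretch is chr6:7693210-7693272 and the Got1 stretch chr19:43524660-43524748, both on the minus strand. The first base of the match lay at -23 in Asns and at -103 in Got1, counted from the gene's start.
Asns: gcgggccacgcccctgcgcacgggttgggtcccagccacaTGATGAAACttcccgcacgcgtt
Got1: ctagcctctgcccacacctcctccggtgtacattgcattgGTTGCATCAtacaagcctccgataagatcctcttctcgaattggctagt
The match runs forward in Asns and in reverse in Got1. A match is a string of letters and not a measured site.

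The other genes that fell had no match in their windows. For comparison, the 80 bases before 1 start of each are given in lower case. They lie at chr3:98339970-98340049 for Phgdh, chr19:15924623-15924702 for Psat1 and chr19:40588464-40588543 for Aldh18a1, all on the minus strand. Those of Gpt2 lie at chr8:85492496-85492575 on the plus strand. Psat1 has 2 starts, and the one printed has the lower coordinates, which is downstream on the minus strand. The flank of its upstream start, at chr19:15925060-15925139, is not printed.
Phgdh: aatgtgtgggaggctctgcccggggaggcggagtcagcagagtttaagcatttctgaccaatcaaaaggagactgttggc
Psat1: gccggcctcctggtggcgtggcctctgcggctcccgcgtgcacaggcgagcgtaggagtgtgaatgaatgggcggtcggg
Aldh18a1: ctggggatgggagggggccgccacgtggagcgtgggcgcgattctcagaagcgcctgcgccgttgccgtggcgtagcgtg
Gpt2: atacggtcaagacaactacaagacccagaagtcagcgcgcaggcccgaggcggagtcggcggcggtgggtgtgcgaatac
These windows are short, and elements further away or within introns were not searched.

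Of the 10 enzymes, 5 fell with OMA1 ASO and 0 rose. The falls ran from 3.14-fold for Gpt2 to 18.1-fold for Asns, with only a bound for Phgdh. Asns, Phgdh, Psat1, Aldh18a1 and Gpt2 passed the test, whereas Psph, Oat, Gpt, Got1 and Got2 did not. A cluster counted as changed at an adjusted p under 0.01 (limma, Benjamini-Hochberg over all 22206 clusters). Across all clusters, 0.806% were lower and 0.23% higher with OMA1 ASO by the same rule. The same 5 genes were lower with OMA1 ASO1 alone, where 0.721% of all clusters were lower and 0.198% higher, and with OMA1 ASO2 alone, where 0.576% were lower and 0.185% higher. The median log2 fold change of the 10 enzymes was -0.92, beside 0.01 over all clusters. The 2 single-ASO comparisons share the 5 CTRL ASO arrays and are not independent of each other. The 5 calls held in each of these 3 comparisons under all 22 alternatives run for each, including without ASO1 replicate 5.

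**Figure D1:**
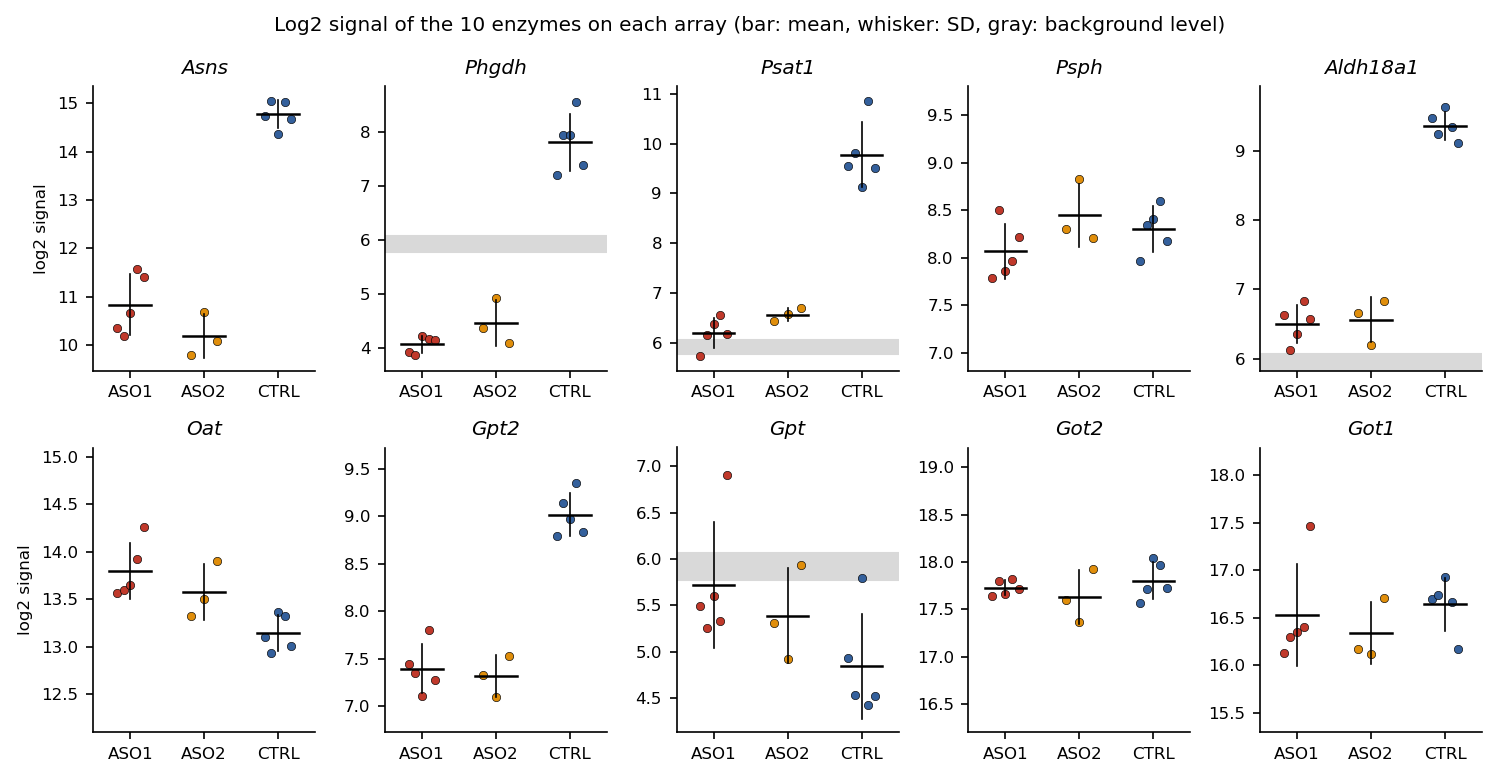
Log2 signal of each enzyme on each array (vertical axes, each panel on its own range) for OMA1 ASO1 (n = 5), OMA1 ASO2 (n = 3) and CTRL ASO (n = 5). Points are arrays, the bar is the mean, the whisker the SD, and the gray band the background level of 5.77 to 6.07. Asns, Phgdh, Psat1, Aldh18a1 and Gpt2 passed the pooled test and were lower with OMA1 ASO, beside 0.806% of all clusters.

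Asparagine is made from aspartate and glutamine by asparagine synthetase, the product of Asns. On the OMA1 ASO1 arrays Asns had log2 signals of 10.35, 10.20, 10.66, 11.58 and 11.41, on the OMA1 ASO2 arrays 9.79, 10.68 and 10.09, and on the CTRL ASO arrays 14.74, 15.05, 14.36, 15.03 and 14.67. The treatments were far apart, and within OMA1 ASO1 replicates 4 and 5 were the highest. Asns was 18.1-fold lower with OMA1 ASO (log2 fold change -4.18, SE 0.27, 95% interval -4.74 to -3.62, limma adjusted p = 3.78e-08). It fell by 3.93 on the log2 scale with OMA1 ASO1 and fell by 4.58 with OMA1 ASO2. Over the 13 arrays its signal ran most closely with Eprs (r = 0.992), Ghitm (0.991) and Nars (0.989). Eprs and Nars encode the glutamyl-prolyl- and asparaginyl-tRNA synthetases. These correlations are given without a p, because the arrays fall into 2 clusters by treatment and these genes share the difference between them.

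The serine route from the glycolytic intermediate 3-phosphoglycerate has 3 steps, and its first and middle steps fell while the last did not pass the test. Phgdh, phosphoglycerate dehydrogenase, commits the intermediate to serine. It had log2 signals of 3.93, 3.88, 4.22, 4.17 and 4.16 with OMA1 ASO1, of 4.36, 4.93 and 4.10 with OMA1 ASO2, and of 7.20, 7.94, 7.93, 8.54 and 7.38 with CTRL ASO. All 8 OMA1 ASO arrays lay below their background and all 5 CTRL ASO arrays above it. Phgdh was therefore lower with OMA1 ASO by a factor that is only bounded, at least 3.48-fold (limma adjusted p = 2.69e-08), and the bound was 3.42-fold for OMA1 ASO1 and 3.59-fold for OMA1 ASO2. The fitted log2 fold change was -3.58 (SE 0.22), which takes the signals below background at face value.

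Psat1, phosphoserine aminotransferase, carries out the middle step with glutamate as the nitrogen donor. Its log2 signals were 5.74, 6.16, 6.38, 6.56 and 6.18 with OMA1 ASO1, 6.44, 6.58 and 6.70 with OMA1 ASO2, and 9.55, 9.81, 9.13, 10.85 and 9.51 with CTRL ASO. It was above background on 7 of 8 OMA1 ASO arrays, close to the background level, and well above it on all CTRL ASO arrays. Psat1 was 10.8-fold lower with OMA1 ASO (log2 fold change -3.43, SE 0.24, 95% interval -3.93 to -2.93, limma adjusted p = 8.54e-08). The fourth CTRL ASO replicate was the highest of its group for both Phgdh and Psat1, and also for Gpt2 and Psph. Without it Psat1 and Phgdh still passed the test.

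Psph, phosphoserine phosphatase, releases serine in the last step. Its log2 signals ran from 7.79 to 8.50 with OMA1 ASO1, from 8.20 to 8.83 with OMA1 ASO2 and from 7.97 to 8.60 with CTRL ASO, so the groups overlapped. The log2 fold change was -0.09 (SE 0.18, 95% interval -0.47 to 0.29, limma adjusted p = 0.905). The interval of Psph lies wholly above those of Phgdh and Psat1 in the same fit, although the difference between the genes was not tested.

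Proline and ornithine meet at glutamate semialdehyde in mitochondria, which Aldh18a1 makes from glutamate and Oat makes from ornithine. Aldh18a1, the pyrroline-5-carboxylate synthase, had log2 signals of 6.62, 6.12, 6.35, 6.83 and 6.58 with OMA1 ASO1, of 6.65, 6.20 and 6.84 with OMA1 ASO2, and of 9.47, 9.24, 9.63, 9.34 and 9.11 with CTRL ASO. All arrays were above background, the OMA1 ASO arrays close to it, and the 2 treatments lay over 2 log2 units apart. Aldh18a1 was 7.13-fold lower with OMA1 ASO (log2 fold change -2.83, SE 0.16, 95% interval -3.17 to -2.50, limma adjusted p = 9.58e-09). It had the smallest adjusted p of the 10 enzymes. Its signal ran most closely with the targeted gene Oma1 (r = 0.990 over 13 arrays), Snd1 (0.987) and Lonp1 (0.978), the gene of the matrix protease LON. The same limit on r holds as for Asns. Oma1 also lay below background on every OMA1 ASO array, so its r shows no more than the difference between treatments.

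Oat, ornithine aminotransferase, did not pass the test. Its log2 signals were 13.56, 13.59, 13.65, 13.92 and 14.26 with OMA1 ASO1, 13.32, 13.50 and 13.90 with OMA1 ASO2, and 13.10, 12.93, 13.36, 13.32 and 13.01 with CTRL ASO. All OMA1 ASO1 arrays lay above all CTRL ASO arrays, whereas OMA1 ASO2 overlapped CTRL ASO. The log2 fold change was 0.57 (SE 0.16, 95% interval 0.22 to 0.91, limma adjusted p = 0.0939), and it was 0.49 without ASO1 replicate 5, which had the highest value. Oat thus differed in sign from Aldh18a1, without a call.

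Alanine and aspartate are made by transamination of pyruvate and oxaloacetate, and each reaction has a cytosolic and a mitochondrial isozyme. Gpt2, the mitochondrial alanine aminotransferase, had log2 signals of 7.45, 7.35, 7.11, 7.81 and 7.27 with OMA1 ASO1, of 7.33, 7.10 and 7.54 with OMA1 ASO2, and of 8.79, 9.15, 8.97, 9.35 and 8.84 with CTRL ASO. The treatments did not overlap, and the arrays of each lay within 1 log2 unit. Gpt2 was 3.14-fold lower with OMA1 ASO (log2 fold change -1.65, SE 0.15, 95% interval -1.98 to -1.33, limma adjusted p = 3.57e-06), the smallest of the 5 falls. Its signal ran most closely with Cyb5r1 (r = 0.977 over 13 arrays), Oma1 (0.975) and Lonp1 (0.975), with the same limits on r, that of Oma1 below background included.

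Gpt, the cytosolic alanine aminotransferase, was below background on 11 of 13 arrays. Its log2 signals were 5.50, 5.26, 5.60, 5.33 and 6.90 with OMA1 ASO1, 5.30, 4.92 and 5.94 with OMA1 ASO2, and 4.93, 4.53, 5.79, 4.43 and 4.52 with CTRL ASO. It was above background on 2 of 8 OMA1 ASO arrays and on 0 of 5 CTRL ASO arrays, so no fold is given. It did not pass the test (limma adjusted p = 0.263).

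Got1 and Got2, the cytosolic and mitochondrial aspartate aminotransferases of the malate-aspartate shuttle, were far above background on every array and did not pass the test. Got1 ran from 16.13 to 17.47 with OMA1 ASO1, from 16.12 to 16.71 with OMA1 ASO2 and from 16.17 to 16.93 with CTRL ASO. Its log2 fold change was -0.18 (SE 0.21, 95% interval -0.63 to 0.26, limma adjusted p = 0.808), and -0.33 without ASO1 replicate 5, which held the value of 17.47. Got2 ran from 17.64 to 17.82 with OMA1 ASO1, from 17.37 to 17.93 with OMA1 ASO2 and from 17.57 to 18.04 with CTRL ASO. Its log2 fold change was -0.11 (SE 0.14, 95% interval -0.41 to 0.18, limma adjusted p = 0.825). For both genes the interval leaves out a fall as large as that of Gpt2.

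The isozymes of aspartate aminotransferase were also set against each other on every array, as the log2 signal of Got2 minus that of Got1. The shift of this difference between treatments can be read, but not its level, since probes of different genes have no common scale. It averaged 1.24 ± 0.41 with OMA1 ASO (SD, n = 8) and 1.16 ± 0.28 with CTRL ASO (n = 5), a shift of 0.07 (exact two-sided permutation p = 0.737). The same difference was computed for Gpt2 and Gpt, as planned, and shifted by -2.40 (exact two-sided permutation p = 0.00155). Nothing is read from it, because Gpt was below background on 11 of 13 arrays.

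The ASOs were then compared with each other, which asks whether the enzymes responded alike to 2 oligonucleotides against the same transcript. Of the 10 enzymes 0 passed the test for OMA1 ASO2 against OMA1 ASO1 (limma), and 0 had an unadjusted p under 0.05, while 0.104% of all clusters passed. Asns came nearest, at 10.19 ± 0.45 with OMA1 ASO2 (SD, n = 3) and 10.84 ± 0.62 with OMA1 ASO1 (n = 5), a log2 fold change of -0.65 (95% interval -1.31 to 0.01, limma adjusted p = 0.644). The other 9 differences ran from -0.33 for Gpt to 0.39 for Phgdh, which was below background with both ASOs. The intervals of these 10 differences reach from -1.31 to 1.00, so with 3 and 5 arrays they include a 2-fold difference for Asns, Psat1 and Gpt. Psph lay on opposite sides of CTRL ASO, with a log2 fold change of 0.14 for OMA1 ASO2 and -0.24 for OMA1 ASO1, and neither passed the test.

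**Figure D2:**
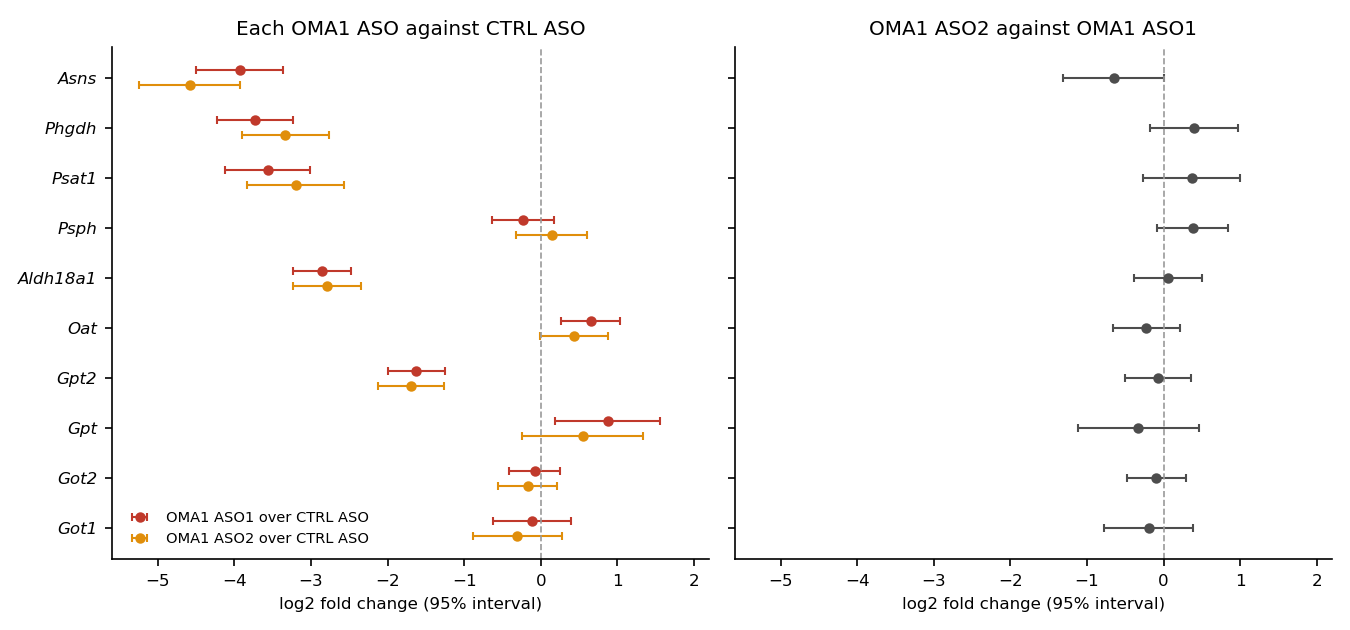
Log2 fold changes of the 10 enzymes with 95% intervals (horizontal axis), for OMA1 ASO1 and OMA1 ASO2 over CTRL ASO (left) and for OMA1 ASO2 over OMA1 ASO1 (right). Asns, Phgdh, Psat1, Aldh18a1 and Gpt2 lie below 0 with each ASO, and the intervals on the right all include 0. Values for Phgdh rest on OMA1 ASO signals below background.

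The rest of amino acid metabolism was read from a wider list of 40 enzymes, chosen with earlier results of these data known. They are enzymes of synthesis and breakdown, except Aldh1l2, which is a folate enzyme. Of the 40, 28 had a cluster on the array. Of these, 12 lay below background on all 13 arrays and carry no information on a change, among them Gldc, Amt and Cbs, and 16 were above it on at least 1 array. With OMA1 ASO, 4 of the 28 fell, which were Aldh1l2, Cth, Shmt2 and Srr, and 0 rose. Across all clusters, 0.806% were lower and 0.23% higher by the same rule. The median log2 fold change was 0.04 over the 28, the 12 below background included, beside -0.92 for the 10 enzymes above and 0.01 for all clusters. Bcat1 was above background on 3 of 5 CTRL ASO and 0 of 8 OMA1 ASO arrays. It counts among the 16 only through CTRL ASO, so no median over the 16 is read. Aldh1l2, the mitochondrial 10-formyltetrahydrofolate dehydrogenase, averaged 6.11 with OMA1 ASO and 9.61 with CTRL ASO (log2 fold change -3.49, SE 0.35, limma adjusted p = 7.87e-06). Cth, the cystathionine gamma-lyase that makes cysteine, had a log2 fold change of -1.99 (SE 0.25, limma adjusted p = 0.000114). Both were below background on some OMA1 ASO arrays, Aldh1l2 on 4 of 8 and Cth on 5 of 8.

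Shmt2, the mitochondrial serine hydroxymethyltransferase, uses serine made by the Phgdh route. Its log2 signals were 7.34, 6.88, 7.16, 8.03 and 7.59 with OMA1 ASO1, 7.35, 6.90 and 7.92 with OMA1 ASO2, and 8.59, 8.73, 9.31, 9.42 and 7.95 with CTRL ASO. The CTRL ASO array at 7.95 overlapped the OMA1 ASO arrays. Shmt2 had a log2 fold change of -1.40 in the pooled comparison (SE 0.25, limma adjusted p = 0.00422), whereas with OMA1 ASO1 alone the adjusted p was 0.0148 and with OMA1 ASO2 alone 0.0403. Srr, serine racemase, fell by 1.14 on the log2 scale (SE 0.15, limma adjusted p = 0.000269). With each ASO alone, 3 of the 28 passed the test, all lower, namely Aldh1l2, Cth and Srr. Across all clusters, 0.721% were lower with OMA1 ASO1 and 0.576% with OMA1 ASO2. For OMA1 ASO2 the count was 1 of 28 after leaving out any 1 of 5 arrays (OMA1 ASO2 replicate 1, 2 or 3, or CTRL ASO replicate 1 or 2). The other 12 enzymes with a signal above background did not pass the pooled test. They included Shmt1, the cytosolic counterpart of Shmt2 (log2 fold change -0.44, limma adjusted p = 0.322), and the glycine cleavage genes Dld (0.38, limma adjusted p = 0.162) and Gcsh (0.07, limma adjusted p = 0.912).

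**Figure D3:**
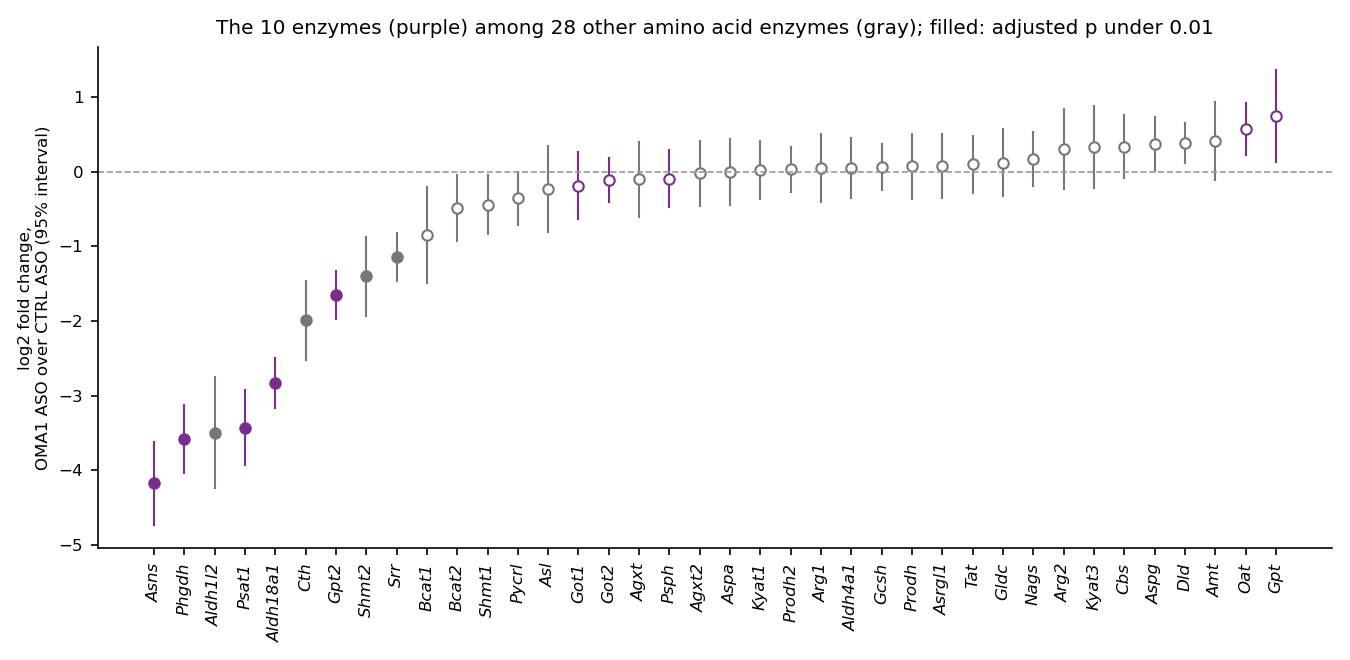
Log2 fold change of OMA1 ASO over CTRL ASO with 95% interval (vertical axis) for the 10 enzymes (purple) and 28 enzymes of the wider list (gray), of which 12 were below background on every array, sorted by value. Filled points passed the test at an adjusted p under 0.01. The 9 filled points all lie below 0, from Asns at -4.18 to Srr at -1.14.

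Atf4 mRNA itself was lower with OMA1 ASO, at 11.31 ± 0.80 with OMA1 ASO1 (SD, n = 5), 10.91 ± 0.38 with OMA1 ASO2 (n = 3) and 14.15 ± 0.41 with CTRL ASO (n = 5), a log2 fold change of -2.99 in the pooled comparison (limma adjusted p = 5.44e-06). Atf4 was not alone in this, since Atf5 (-3.76), Ddit3 (-2.12) and Cebpg (-1.88) also passed the pooled test. Trib3, below background on every OMA1 ASO array, was lower by at least 2.36-fold. The mutated gene, Chchd10, did not pass (-1.16, limma adjusted p = 0.0258). Whether the enzymes followed Atf4 from array to array was examined within the 8 OMA1 ASO arrays, because the CTRL ASO arrays form a separate cluster. Phgdh was below background on all 8 of these arrays and Gpt on 6, so nothing is read from their correlations. Over the other 8 enzymes, a set chosen after seeing the data, 0 passed an adjusted p of 0.05 by Pearson's r or Spearman's rho. Got1 (r = 0.92, rho = 0.67) and Oat (r = 0.82, rho = 0.60) came nearest, with exact permutation p of r of 0.0114 and 0.0139 before adjustment and 0.0558 each after Benjamini-Hochberg adjustment over the 8. When all 10 enzymes were adjusted together, as had been planned, Got1, Oat and Gpt passed by r, at an adjusted exact permutation p of 0.0465 each. Without the 2 arrays farthest from the median Atf4, ASO1 replicate 5 and ASO2 replicate 2, r was 0.39 for Got1 and 0.48 for Oat, so both relations rest on those arrays. Without ASO1 replicate 5 alone it was 0.54 for Got1 and 0.53 for Oat.

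Of the enzymes that fell and were above background, r over the 8 arrays was 0.47 for Asns, 0.38 for Aldh18a1, 0.17 for Gpt2 and -0.24 for Psat1, with exact permutation p from 0.265 to 0.662 before or after adjustment. Leaving out ASO1 replicate 5 gave higher values for Gpt2 (r = 0.86, raw exact permutation p = 0.0155) and Aldh18a1 (r = 0.79, raw exact permutation p = 0.0440), and a lower one for Asns (-0.06). Neither of the higher values passed adjustment over the 10 enzymes (adjusted exact permutation p = 0.147 each). Without the 2 farthest arrays r was 0.80 for Gpt2 and 0.72 for Aldh18a1, over 6 arrays. Aldh18a1 and Psat1 lay close to background on the OMA1 ASO arrays, which limits their r.

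**Figure D4:**
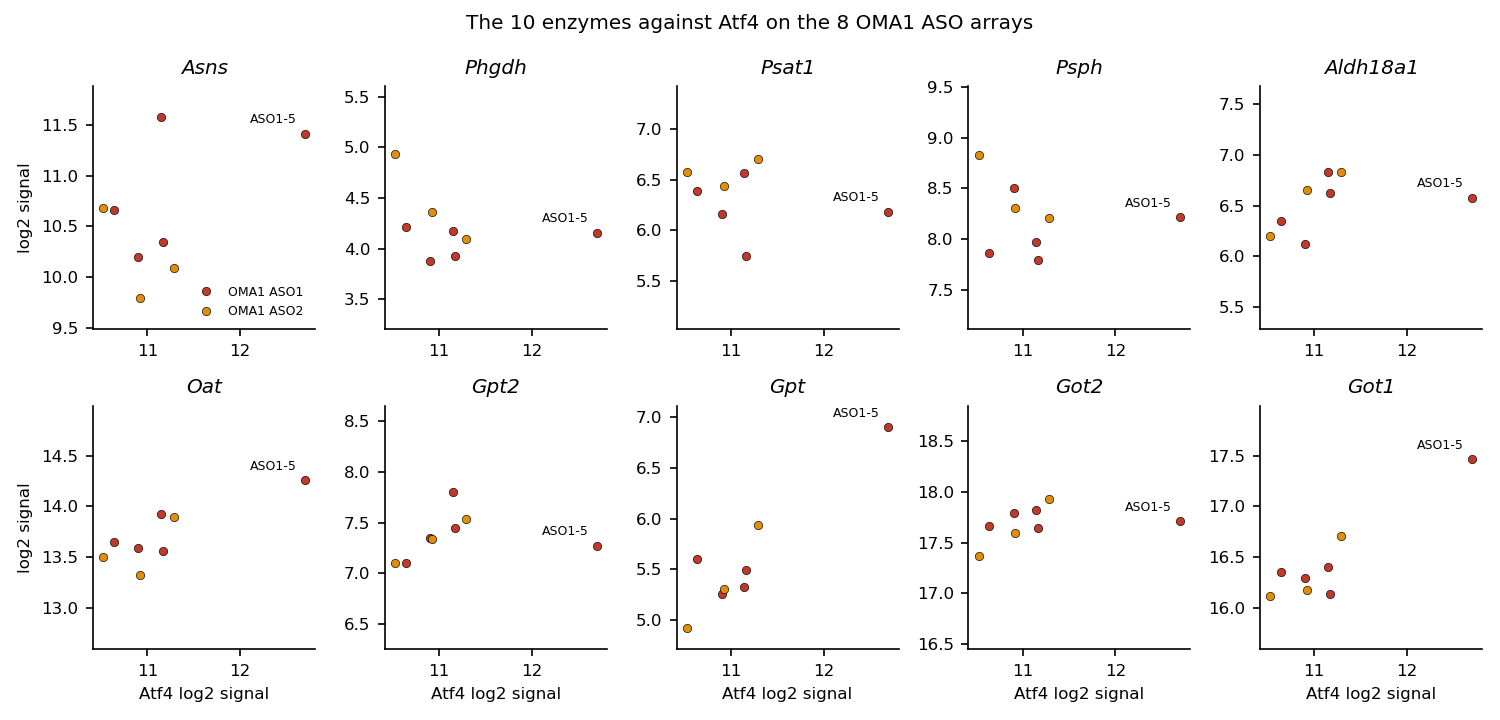
Log2 signal of each enzyme (vertical axes, each spanning the same number of log2 units) against that of Atf4 (horizontal axes) on the 5 OMA1 ASO1 and 3 OMA1 ASO2 arrays. ASO1 replicate 5, with an Atf4 signal of 12.70, lies at the right of every panel. Phgdh on all 8 arrays and Gpt on 6 are below background.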

How the data were processed

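Hearts were profiled on Clariom S Mouse arrays. The deposited values are log2 signals that the authors made by gene-level SST-RMA in Transcriptome Analysis Console with default settings, which corrects background and normalizes between arrays, so a shift common to all genes would be removed. The genome build of the annotation was not given in the sources used here. From 28846 probe sets, 6640 control sets were left out and 22206 clusters kept without a filter. The limma package (version 3.58.1, R 4.3.3) was fitted as 8 OMA1 ASO against 5 CTRL ASO arrays for the pooled comparison and as 3 group means for each ASO, with Benjamini-Hochberg adjustment over all clusters and a threshold of 0.01. Intervals are 95%. Where a group lay below background on all its arrays, the fold is a bound against it. Exact permutations were run with scipy 1.17.1. The fit was tested on simulated data. The number of arrays limits the precision. Each array has a sample label of its own, with a group and a number. The labels do not say which mouse each array came from or whether any are technical replicates. The authors report that some OMA1 ASO-treated mice died during treatment, and how the arrays map to the surviving mice is not stated. Arrays were treated as separate mice in the tests.

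The members and gene lists were chosen with earlier results of these data known. All 10 members are named, with those of the wider list that passed a test. The alternatives were a trend with robust fitting, array weights, quantile normalization again, median centring, a filter on low signals, a threshold of 0.05, replicate numbers as a block, the Y-linked mean as a covariate, both ASOs weighted equally, only the groups compared, only the 9 arrays without Y-linked signal and only genes above background (both added after seeing the data), and leaving out each array. Promoter letters come from RefSeq (GRCm38.p6), with gene IDs matched for 10 of 10 members.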

Additional observations from a re-analysis of the deposited data

Results flagged for a closer look

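Of 28 sets of arrays checked for a single value far from the rest, 2 held one, and chance gives about 1 in 20 such sets. Both came from ASO1 replicate 5. Got1 was 17.47 there, against 16.13 to 16.40 on the other OMA1 ASO1 arrays. Gpt was 6.90 there, against 5.26 to 5.60 on the other OMA1 ASO1 arrays, which were all below background. The same array had the lowest fibroblast marker mean (11.67) and macrophage marker mean and the highest Atf4 signal of the OMA1 ASO arrays (12.70), and the part of these in both values was not tested.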

How the results depend on the processing

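The counts of the 10 enzymes that passed the test (5, 5, 5 and 0 in the 4 comparisons) were the same under every alternative run. The numbers of all clusters were less steady. The pooled count of 230 was 128 with only the arrays without Y-linked signal, 506 at an adjusted p under 0.05 and 142 to 317 with single arrays left out (lowest without CTRL ASO replicate 2, 149 without CTRL ASO replicate 4). The OMA1 ASO1 count of 204 was 108, 412 and 140 to 286 in the same order. The OMA1 ASO2 count of 169 was 107 with the Y-linked covariate, 355 at 0.05 and 96 to 269 with single arrays left out (highest without ASO1 replicate 5). The count of 23 for OMA1 ASO2 against OMA1 ASO1 was 39 with trend and robust fitting, 9 with only those groups, 51 at 0.05 and 8 to 38 with single arrays left out (lowest without ASO2 replicate 2, highest without ASO1 replicate 5). The cause of these shifts was not tested.

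Leaving out single arrays gave 3 to 4 enzymes of the wider list in the pooled comparison, 3 to 4 for OMA1 ASO1 and 1 to 3 for OMA1 ASO2, where the Y-linked covariate gave 1. The relation to Atf4, at 3 of 10 enzymes by r, gave 0 to 3, with 0 without ASO1 replicate 2, 4 or 5 or any OMA1 ASO2 array, and 0 over the 8 enzymes above background on most arrays, an alternative chosen after seeing the data. Gpt2 minus Gpt, which takes Gpt signals below background at face value, shifted by -2.40 over all arrays. With OMA1 ASO2 alone, 3 against 5 arrays, it shifted by -2.24 and did not pass after adjustment (adjusted exact permutation p = 0.0714). Got2 minus Got1 ranged from -0.0015 (without CTRL ASO replicate 1) to 0.21. Among values that never passed a test, signs turned without single arrays for Psph with OMA1 ASO2 over CTRL ASO (-0.048 without ASO2 replicate 2, to 0.26) and, for OMA1 ASO2 over OMA1 ASO1, Aldh18a1 (-0.075 to 0.24), Gpt2 (-0.18 to 0.038), Got1 (-0.38 to 0.039) and Got2 (-0.24 to 0.035). With only the arrays without Y-linked signal, Aldh18a1 (-0.039) and Got1 (0.040) turned there too.

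Samples share only a replicate number across groups. With the replicate number as a block, the cluster count for OMA1 ASO2 against OMA1 ASO1 was 14, and the block changed no call of the 10 enzymes. Using every cluster of a gene gave nothing new, since each enzyme has 1. Signals below background limit Phgdh and Gpt.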
